A study of Arabidopsis thaliana with 10 samples.

Results

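The 10 base excision repair genes described here are UNG, OGG1, FPG1, NTH1, ARP, APE1L, APE2, ZDP, XRCC1 and LIG1. They were listed by locus code, with earlier results of these data known, so the counts below are descriptive. All 10 were on the array and passed the filter on dim probes, among 23667 genes tested. Transcripts were measured in whole Arabidopsis thaliana seedlings of the Columbia-0 ecotype, wild type with no transgene named in the labels and 14 days old. The gamma group received 200 Gy from a cobalt-60 source at 50 Gy per h for 4 h, the mock group did not, and both were sampled at the 24 h time point. Seedlings of both groups were grown on agar medium with sucrose under long days. Every one of 5 experiments used new plants and contributed a mock and a gamma array, labelled with a single dye (Cy3), so that each group held 5 arrays.

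Base excision repair removes single damaged bases, such as uracil or oxidised guanine, from DNA. A glycosylase cuts the damaged base from its sugar, an AP endonuclease or lyase nicks the strand at the site left without a base, end-processing enzymes clean the ends, a polymerase fills the gap and a ligase seals it. Ionising radiation produces oxidised bases and strand breaks with blocked ends, which are substrates of the pathway. In plants the same downstream enzymes also complete active DNA demethylation, which is started by glycosylases of the DEMETER family.

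Each array held 43603 probes, and 0 spots were saturated. Between 71.7% and 76.6% of the probes of an array gave a signal well above background. The 10 genes were covered by 18 probes, all of them well above background on all 10 arrays. Of the 10, 6 had more than 1 probe. UNG, ZDP, APE1L and ARP had 1 probe each, so their values have no second probe beside them. Levels are given as the log2 signal of a gene's brightest probe minus the 75th percentile of its array, so that a level of 0 equals that percentile. Levels of different probes were not compared. The summed levels of marker lists given below add linear levels over genes, so bright probes weigh most in them. The 4 genes used to check the treatment, SMR7, BRCA1, XRI1 and GMI1, rose in gamma by log2 3.07 to 5.73. As a check on the tissue, the 4 leaf markers were well above background on all 10 arrays and 5 of the 6 root markers were too. The remaining root marker, WOX5, was so on 8. The mock array of experiment 2 differed most from the other mock arrays, though by a small margin. On it 49.0% of all genes lay outside the range of the other 4 mock arrays. For the others the share was 30.8% to 46.3%, the highest of these in experiment 5. On the gamma array of experiment 5 the share was 59.3%, against 28.6% to 42.1% for the other gamma arrays. Values without experiment 2 are therefore given beside each result that rests on it, and those without experiment 5 where a call ends. Precision is limited by the small number of arrays.

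The comparison of gamma with mock asked which of the genes respond to gamma rays in the intact seedling. Of the 10 genes, UNG and ZDP rose, 0 fell and 8 did not pass the test (limma with the experiment as a block, Benjamini-Hochberg adjusted p under 0.05 over all genes tested). Over all genes, 1.68% were called higher and 2.32% lower. The estimate was above 0 for 7 of the 10 genes, against 46.2% of all genes, and the median change of the 10 was log2 0.12 against -0.015 for all genes. Without experiment 2 the median of the 10 was 0.069. At an unadjusted p under 0.05, 4 of the 10 were higher, against 9.15% of all genes, and these 4 were UNG, ZDP, APE1L and LIG1. The same 4 were higher in gamma in 5 of 5 experiments, against 10.1% of all genes. In UNG and ZDP every gamma array lay above every mock array, against 0.913% of all genes, and 0 of the 10 genes lay wholly below, against 1.12% of all genes. Both calls also held in a fit without the pairing by experiment, in which 0.6% of all genes passed. Since these are whole seedlings, fewer cells of a type and less RNA per cell cannot be told apart in any value below.

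**Figure D1:**
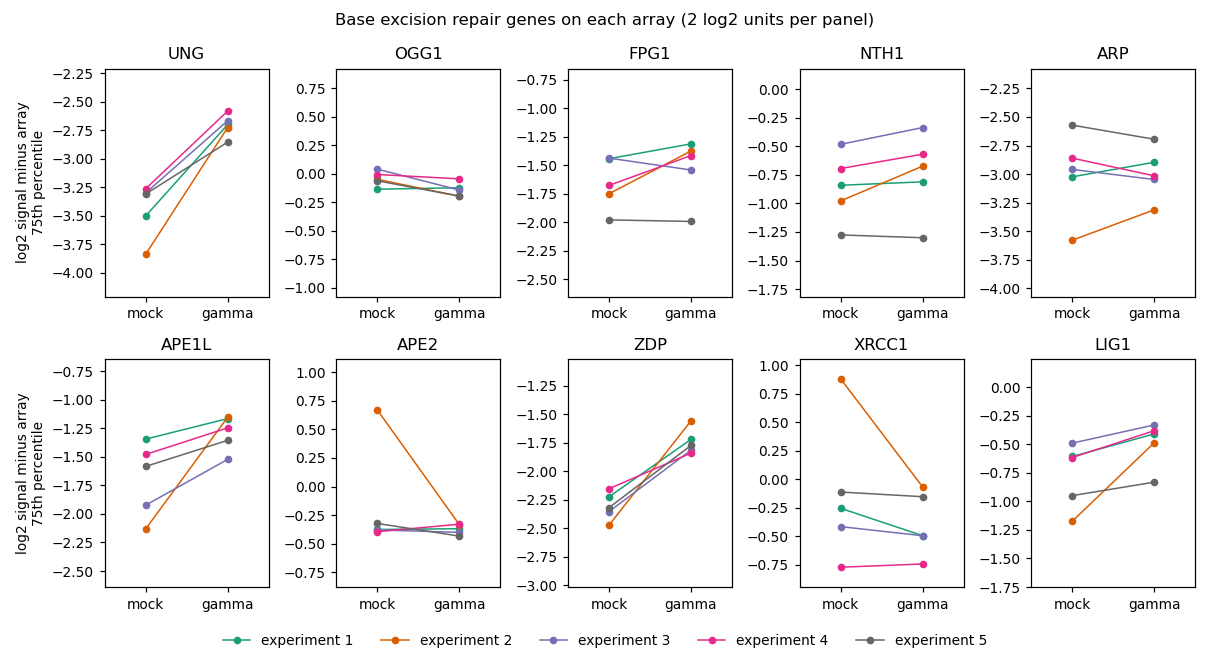
Level of each of the 10 genes (log2 signal minus the array's 75th percentile, vertical axis) in mock and gamma seedlings, with a line joining the arrays of 1 experiment; every panel spans 2 log2 units. The lines of UNG, ZDP, APE1L and LIG1 go up in all 5 experiments, and the mock points of experiment 2 lie far above the rest for APE2 and XRCC1.

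Among the glycosylases, UNG (AT3G18630) encodes uracil-DNA glycosylase, which removes uracil formed by cytosine deamination or built in during replication. Its level was -3.50, -3.84, -3.30, -3.26 and -3.31 on mock arrays 1 to 5. It was -2.70, -2.73, -2.67, -2.58 and -2.86 on gamma arrays 1 to 5. The gamma arrays lay close together, and the lowest of them was above the highest mock array. UNG rose 1.66-fold (log2 0.74 ± 0.10 SE, 95% interval 0.50 to 0.97, n = 5 pairs, limma adjusted p = 0.0186), from a mean level of -3.44 ± 0.24 to -2.71 ± 0.10 (SD, n = 5). The difference was log2 0.80, 1.11, 0.63, 0.68 and 0.45 in experiments 1 to 5. The mock array of experiment 2 was the lowest of the 10 arrays, and without that experiment the change was 0.64 with an adjusted p of 0.0194 in limma. The call ended when experiment 1, 3 or 4 was left out, with estimates of 0.72, 0.76 and 0.75 and limma adjusted p of 0.0716, 0.0686 and 0.0742.

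The other glycosylases act mainly on oxidised bases. OGG1 (AT1G21710) removes 8-oxoguanine, and FPG1 (AT1G52500) is a plant counterpart of the bacterial formamidopyrimidine glycosylase with overlapping substrates. NTH1 (AT2G31450), related to bacterial endonuclease III, removes oxidised pyrimidines. None of these 3 passed the test.

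The level of OGG1 was -0.13, -0.05, 0.04, -0.01 and -0.06 on mock arrays 1 to 5. On gamma arrays 1 to 5 it was -0.12, -0.19, -0.14, -0.04 and -0.20. The groups overlapped and gamma was higher in 1 of 5 experiments. The change was log2 -0.10 ± 0.05 SE with an interval of -0.23 to 0.035 (n = 5 pairs, limma adjusted p = 0.348). The interval left out any rise of the size seen for UNG.

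FPG1 lay between -1.98 and -1.44 on the mock arrays, with a median of -1.68, and between -1.99 and -1.31 on the gamma arrays, with a median of -1.41. The lowest array of each group came from experiment 5. Its change was log2 0.13 ± 0.08 SE (interval -0.07 to 0.33, n = 5 pairs, limma adjusted p = 0.410), and gamma was higher in 3 of 5 experiments. On the second, dimmer FPG1 probe gamma was higher in 5 of 5 experiments. The estimate of that probe was log2 0.17 ± 0.07 SE (limma unadjusted p = 0.0563, adjusted p = 0.252). NTH1 showed the same low values in experiment 5, at -1.28 in mock and -1.30 in gamma, while its remaining arrays lay between -0.98 and -0.34. It changed by log2 0.12 ± 0.06 SE (interval -0.04 to 0.27, n = 5 pairs, limma adjusted p = 0.345) and was higher in gamma in 4 of 5 experiments. For both genes the experiments differed more from each other than gamma did from mock.

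The AP endonucleases cut the strand at sites without a base. APE1L (AT3G48425), which in Arabidopsis also trims ends during DNA demethylation, had mock levels of -1.34, -2.13, -1.92, -1.48 and -1.58 in experiments 1 to 5. Its gamma levels were -1.16, -1.15, -1.52, -1.25 and -1.36. Gamma was above mock in every pair, but the groups overlapped, because the mock array of experiment 1 lay above the gamma arrays of experiments 3 and 5. The change of log2 0.40 ± 0.13 SE (interval 0.10 to 0.71, n = 5 pairs) had an unadjusted p of 0.0181 and an adjusted p of 0.140 in limma. The difference was 0.98 in experiment 2 and 0.18 to 0.40 in the other experiments. Without experiment 2 it was 0.26, with a limma adjusted p of 0.0716.

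ARP (AT2G41460) is the AP endonuclease first characterised in Arabidopsis, with mock levels of -3.02, -3.58, -2.96, -2.86 and -2.57 in experiments 1 to 5. The gamma levels were -2.90, -3.31, -3.05, -3.02 and -2.69. Each gamma array stayed near its own mock array, and experiment 2 was the lowest in both groups. The change was log2 0.0054 ± 0.080 SE (interval -0.19 to 0.20, n = 5 pairs, limma adjusted p = 0.976). The sign was positive in experiments 1 and 2 and negative in experiments 3, 4 and 5. Without experiment 1 the estimate was -0.025 and without experiment 2 it was -0.060.

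APE2 (AT4G36050) belongs to the same family of nucleases. Its mock levels in experiments 1 to 5 were -0.38, 0.67, -0.38, -0.40 and -0.32. Its gamma levels were -0.37, -0.33, -0.40, -0.33 and -0.43. Of these 10 arrays, 9 lay within a narrow band and the mock array of experiment 2 stood 0.99 log2 units above the next mock array. For this probe the estimate of log2 -0.21 ± 0.17 SE (interval -0.62 to 0.19, n = 5 pairs, limma adjusted p = 0.494) rested on experiment 2, and without it the estimate was -0.015. The second probe of APE2 also had its highest mock level in experiment 2, at -1.09 against -2.07 to -1.66 on the other mock arrays. On that second probe gamma was the lower array of every pair, with differences of -0.17, -0.77, -0.11, -0.09 and -0.04 in experiments 1 to 5. Its estimate was log2 -0.23 ± 0.12 SE (limma unadjusted p = 0.0920, adjusted p = 0.317).

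ZDP (AT3G14890) encodes a zinc finger 3′-phosphatase that turns blocked 3′ ends into ends a polymerase can extend, both in repair and in demethylation. Its level was -2.22, -2.47, -2.35, -2.15 and -2.32 on mock arrays 1 to 5. On gamma arrays 1 to 5 it was -1.72, -1.56, -1.82, -1.84 and -1.77. Both groups were tight and did not overlap. ZDP rose 1.48-fold (log2 0.56 ± 0.09 SE, 95% interval 0.34 to 0.78, n = 5 pairs, limma adjusted p = 0.0310), from a mean level of -2.30 ± 0.12 to -1.74 ± 0.11 (SD, n = 5). The difference in experiments 1 to 5 was log2 0.50, 0.91, 0.54, 0.31 and 0.55, and without experiment 2 the change was 0.47 with a limma adjusted p of 0.0262. The call ended when experiment 1, 3, 4 or 5 was left out. The estimates were then 0.58, 0.57, 0.62 and 0.57, and the limma adjusted p values 0.0895, 0.109, 0.0657 and 0.104.

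XRCC1 (AT1G80420) encodes the scaffold protein of the pathway, which binds ZDP and other repair enzymes. Its mock levels were -0.26, 0.88, -0.42, -0.77 and -0.11 in experiments 1 to 5. Its gamma levels were -0.50, -0.07, -0.50, -0.74 and -0.15. As for APE2, the mock array of experiment 2 was the highest, 0.99 log2 units above the next mock array, and the gamma array of experiment 2 was the highest of its group. The estimate was log2 -0.26 ± 0.15 SE (interval -0.62 to 0.11, n = 5 pairs, limma adjusted p = 0.367), and without experiment 2 it was -0.083. On each of the 4 XRCC1 probes the mock array of experiment 2 was the highest mock array, and the difference between gamma and mock in that experiment was -0.95, -0.99, -0.84 and -0.85.

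LIG1 (AT1G08130) encodes DNA ligase 1, which seals nicks in repair and joins Okazaki fragments in replication. Its level was -0.61, -1.17, -0.49, -0.61 and -0.95 on mock arrays 1 to 5 and -0.41, -0.49, -0.33, -0.38 and -0.83 on gamma arrays 1 to 5. The groups overlapped, with gamma the higher array of each pair. The change of log2 0.28 ± 0.09 SE (interval 0.05 to 0.51, n = 5 pairs) had an unadjusted p of 0.0247 and an adjusted p of 0.164 in limma. It was 0.69 in experiment 2 and 0.12 to 0.23 in the other experiments. Without experiment 2 it was 0.18, with a limma adjusted p of 0.102.

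**Figure D2:**
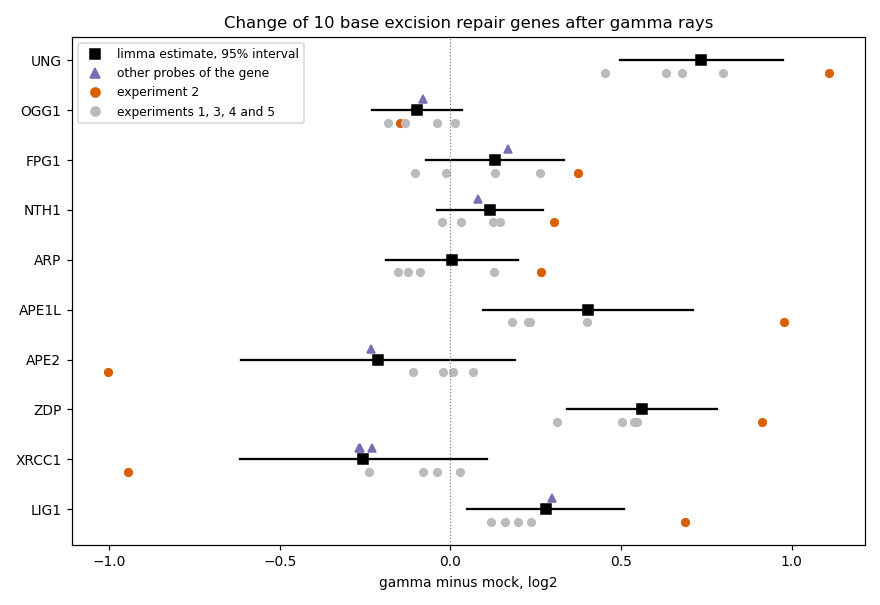
Change of each gene as gamma minus mock (log2, horizontal axis): squares with bars are the limma estimate with its 95% interval, triangles are the other probes of the gene, orange points are experiment 2 and grey points the other 4 experiments. The intervals of UNG and ZDP lie furthest above 0, and the orange point is the most extreme of the 5 for every gene except OGG1.

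The unirradiated level of these genes differed between the experiments. On the mock array of experiment 2, 7 of the 10 genes lay outside the range of the other 4 mock arrays. The share over all genes was 49.0%. On that array APE2 and XRCC1 were the highest, and UNG, ARP, APE1L, ZDP and LIG1 were the lowest. The numbers outside the range of the others were 2, 4, 4 and 3 for the mock arrays of experiments 1, 3, 4 and 5. The shares over all genes were 38.4%, 35.5%, 30.8% and 46.3%. On the gamma array of experiment 5, 7 of the 10 genes lay outside the range of the other gamma arrays, 6 of them lowest. The share over all genes was 59.3% for that array. The median size of the change in experiment 2, regardless of sign, was log2 0.80 over the 10 genes, against 0.12 to 0.19 in the other experiments. Over all genes it was 0.25 in experiment 2 and 0.13 to 0.15 in the others. The part of the mock array of experiment 2 in these changes was not tested, since leaving out the experiment removes its gamma array too.

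**Figure D3:**
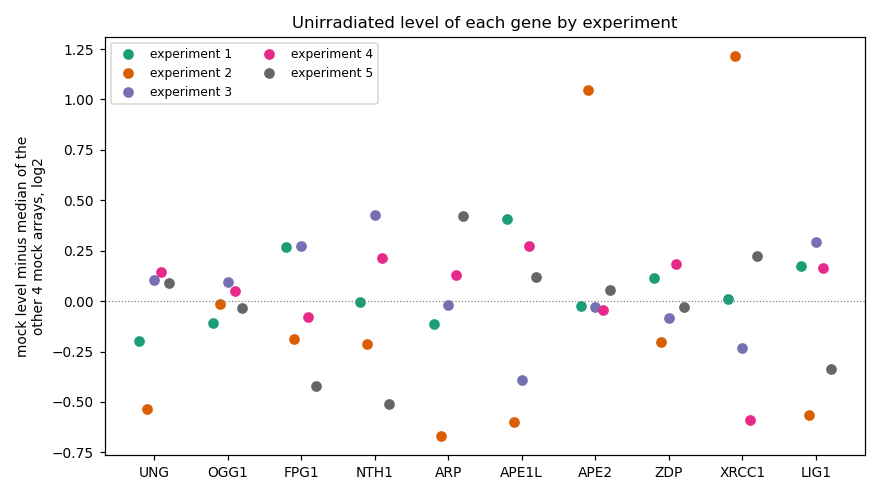
Mock level of each gene in each experiment minus the median of the other 4 mock arrays (log2, vertical axis), with 1 point per experiment. Experiment 2 lies 1.05 above for APE2 and 1.21 above for XRCC1, and below the other experiments for UNG, ARP, APE1L, ZDP and LIG1.

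By the sample titles, experiments 1 and 2 came from an earlier calendar year than the remaining 3. The test of the difference in response, later minus earlier experiments, passed for 0 of the 10 genes after adjustment (limma with Benjamini-Hochberg), as it did for 0.00423% of all genes. At an unadjusted p under 0.05 it passed for ARP and XRCC1, 2 of the 10, against 10.5% of all genes. ARP differed by log2 -0.32 ± 0.11 SE (limma unadjusted p = 0.0271, adjusted p = 0.405) and XRCC1 by 0.56 ± 0.22 SE (limma unadjusted p = 0.0488, adjusted p = 0.474). When experiment 1 was left out, which leaves experiment 2 alone on the earlier side, APE2 and XRCC1 passed the adjusted test, against 2.6% of all genes, and 7 of the 10 genes passed at an unadjusted p under 0.05, against 28.6%. With experiment 3, 4 or 5 left out, 0 of the 10 genes passed at an unadjusted p under 0.05 (limma). The share of all genes at that threshold was not counted there, and 0 genes of the genome passed after adjustment. Leaving out experiment 2 leaves experiment 1 alone on the earlier side, so that fit is not counted here. Within the earlier experiments alone UNG changed by 0.95 and ZDP by 0.71, but 0 genes of the genome passed there after adjustment (limma), against 10.1% at an unadjusted p under 0.05, 2 of the 10 genes among them. Within the later experiments alone UNG rose by 0.59 (limma adjusted p = 0.0393), where 1.19% of all genes were called higher, and ZDP changed by 0.46 (limma adjusted p = 0.0612). APE1L changed by 0.29, LIG1 by 0.17, ARP by -0.12, APE2 by -0.022 and XRCC1 by -0.031 in the later experiments, none of them past the test.

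The levels of UNG and ZDP followed each other over the 10 arrays with a Pearson r of 0.910, which placed ZDP at rank 60 of 20031 other genes by likeness to UNG, and UNG at rank 70 by likeness to ZDP. These arrays share their groups and their experiments, so the values describe the arrays only. The genes most like UNG were NHX6 (r = 0.979), AT3G42860 (r = 0.974), AT1G20120 (r = 0.973), TOM20-1 (r = 0.970) and AT1G52270 (r = 0.969), all of which rose in gamma. NHX6 encodes an endosomal sodium and proton antiporter and TOM20-1 a subunit of the mitochondrial import receptor. The genes most like ZDP were AT3G48770 (r = 0.970), the auxin transporter gene ABCB1 (r = 0.967), AT5G11410 (r = 0.966), AT3G42850 (r = 0.965) and AT1G30600 (r = 0.964). Of these, ABCB1 did not pass the test (limma adjusted p = 0.0655). APE1L followed ZDP with r = 0.825, while OGG1 ran against it with r = -0.706.

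The other genes of the pathway were 35 by a list of loci, of which 34 were on the array and tested and PARP3 matched no probe. Of the 34, 3 rose, 1 fell and 30 did not pass the test, against 4.01% of all genes called in either direction. Their median change was log2 0.081, and 0.041 without experiment 2, and 21 of 34 estimates were above 0, against 46.2% of all genes.

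The strongest changes were in the genes of break sensing and end processing, where 2 of 4 rose. PARP2 (AT4G02390), whose product binds strand breaks and builds poly(ADP-ribose), had mock levels of -1.88, -2.55, -2.08, -2.14 and -2.36 and gamma levels of 1.81, 1.94, 1.88, 1.74 and 1.40. The groups were far apart, and PARP2 rose by log2 3.95 ± 0.12 SE (limma adjusted p = 0.000248, n = 5 pairs). PARP1 (AT2G31320), of the same family, rose by log2 1.59 ± 0.09 SE (limma adjusted p = 0.00112, n = 5 pairs), from mock levels of -1.82 to -1.54 to gamma levels of -0.22 to 0.13. Both changes were larger than that of any of the 10 genes above.

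In gap filling, flap removal and ligation, 1 of 9 genes rose, against 1.68% of all genes. All 9 estimates were above 0, against 46.2% of all genes, with a median of log2 0.32. The median difference of the list was 0.55 in experiment 2 and 0.15 to 0.27 in the others, and without experiment 2 the median estimate was 0.26. POLD4 (AT1G09815), a small subunit of DNA polymerase delta, had mock levels of 1.81, 1.79, 1.76, 1.67 and 1.59 and gamma levels of 2.81, 2.99, 3.15, 3.01 and 2.66. Every gamma array lay above every mock array, and POLD4 rose 2.30-fold, by log2 1.20 ± 0.08 SE (limma adjusted p = 0.00143, n = 5 pairs). AT5G63960 had an estimate of 0.32 ± 0.07 SE (n = 5 pairs, limma adjusted p = 0.0546). Without experiment 2 this was 0.26 and passed, with a limma adjusted p of 0.0453.

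Among the 15 other glycosylase loci, 0 rose and 1 fell, with a median of log2 -0.023. At an unadjusted p under 0.05, 3 were higher and 3 lower. AT4G12740 fell by 0.37 on the log2 scale (± 0.07 SE, n = 5 pairs, limma adjusted p = 0.0430) and was lower in 5 of 5 experiments, with overlapping groups. Its call ended without experiment 1, 3, 4 or 5, where the estimate lay between -0.39 and -0.32 and the limma adjusted p between 0.105 and 0.142. It also ended with normexp background correction, at -0.22 (limma adjusted p = 0.0614), without the filter on dim probes (0.0968) and without the pairing (0.680). AT1G80850 had an estimate of 0.69 ± 0.15 SE (n = 5 pairs, limma adjusted p = 0.0583), with a difference of 1.36 in experiment 2 and 0.38 to 0.64 in the others. Without experiment 2 its estimate was 0.53 and passed, with a limma adjusted p of 0.0262.

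The 4 glycosylases of the DEMETER family, which remove 5-methylcytosine, gave 0 calls, none at an unadjusted p under 0.05 either (limma), and a median of log2 -0.017. DME had an estimate of -0.12 and DML3 one of 0.19 (limma adjusted p = 0.380 and 0.499). The 2 genes that clean the nucleotide pool gave 0 calls as well, and 1 at an unadjusted p under 0.05. DUT1, whose dUTPase keeps uracil out of new DNA, had an estimate of 0.38 ± 0.13 SE (n = 5 pairs, limma adjusted p = 0.174). The DUT1 difference was 0.58 and 0.86 in experiments 1 and 2 and -0.01 to 0.30 in experiments 3 to 5. Without experiment 2 the estimate was 0.25 (limma adjusted p = 0.216). NUDX1, which hydrolyses damaged nucleotides, had an estimate of 0.14 ± 0.08 SE (n = 5 pairs, limma adjusted p = 0.370).

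**Figure D4:**
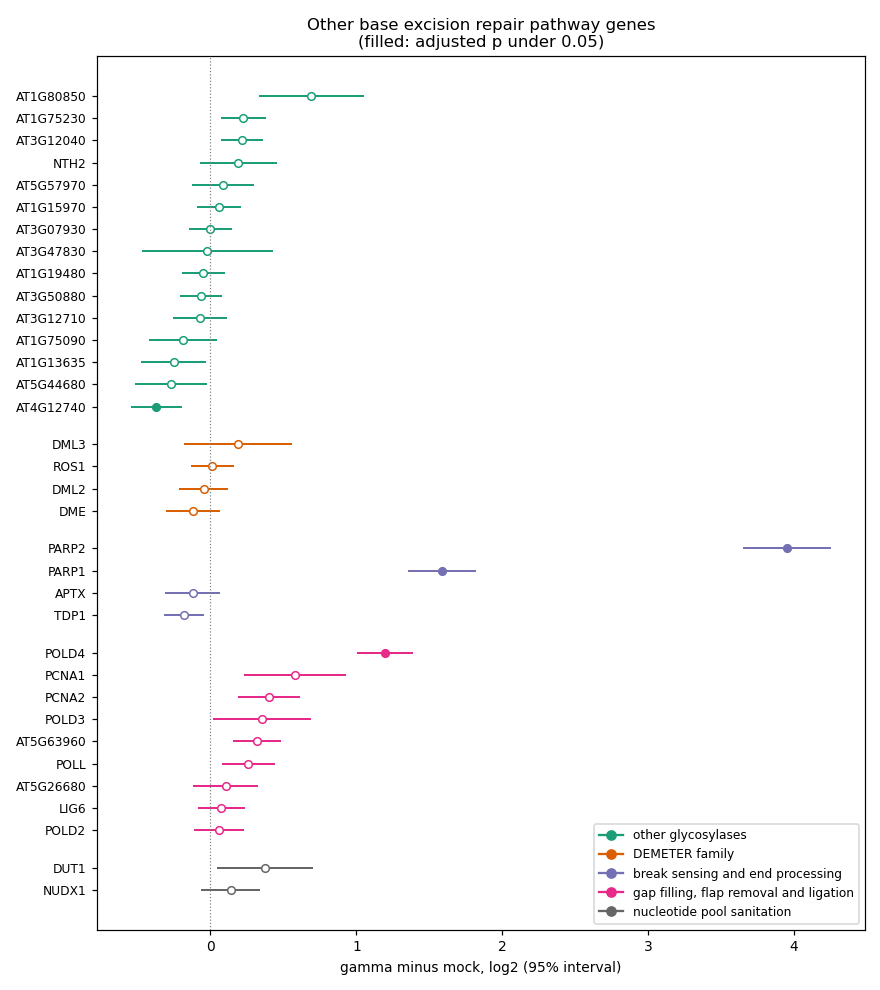
Change of the 34 other genes of the pathway as gamma minus mock (log2, horizontal axis) with 95% intervals, grouped by role; filled points passed the test. PARP2 at 3.95, PARP1 at 1.59 and POLD4 at 1.20 lie apart from the remaining genes, and AT4G12740 is the filled point below 0.

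Markers of dividing cells were examined beside the repair genes. The 10 S-phase markers gave 0 calls after adjustment and 6 at an unadjusted p under 0.05, all higher (limma). Of the 10 estimates 9 were above 0, against 46.2% of all genes, with a median of log2 0.30. MCM5 and MCM3, subunits of the replicative helicase, had estimates of 0.48 and 0.56 (limma adjusted p = 0.0930 and 0.103). The median change of the S-phase list was 0.76 in experiment 2 and 0.13 to 0.29 in the others, and 0.19 in the fit without experiment 2. Experiment 2 also held the highest difference of UNG, ZDP, APE1L, LIG1, FPG1, NTH1 and ARP, and the lowest of APE2 and XRCC1. This was not particular to S phase. The root list below had its highest median in experiment 2 too, at 0.15 against -0.56 to -0.05 in the others. The leaf list had its lowest there, at -0.27, and the list of G2 and mitosis neither its highest nor its lowest. The summed level of the S-phase list was 3.27 to 5.48 times the 75th percentile in mock and 3.76 to 6.93 in gamma, and it was higher in 5 of 5 experiments.

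Of the 12 markers of G2 and mitosis, 7 fell, against 2.32% of all genes, and all 12 estimates were below 0, with a median of log2 -0.57. CYCB2;1, a B-type cyclin, fell by 0.88 and the Aurora kinase gene AUR3 by 0.73 on the log2 scale (limma adjusted p = 0.0148 and 0.0153). The summed level of that list was 4.26 to 6.58 times the 75th percentile in mock and 2.11 to 4.42 in gamma.

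The 6 root markers and the 4 leaf markers gave 0 calls, with medians of log2 -0.12 and -0.020 (limma), or -0.28 and 0.045 without experiment 2. At an unadjusted p under 0.05, 3 root markers were lower, and 0 leaf markers passed. The root genes with the smallest p were CASP1 at -0.45 and SHR at -0.17 (limma adjusted p = 0.0969 and 0.214), and the leaf genes CAB1 at -0.036 and LHCB2.1 at -0.027 (limma adjusted p = 0.838 and 0.884). The summed root level was 3.65 to 5.60 times the 75th percentile in mock and 2.76 to 4.21 in gamma, and the summed leaf level 369 to 678 in mock and 392 to 680 in gamma. The part of any of these markers in the changes of the repair genes was not tested.

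**Figure D5:**
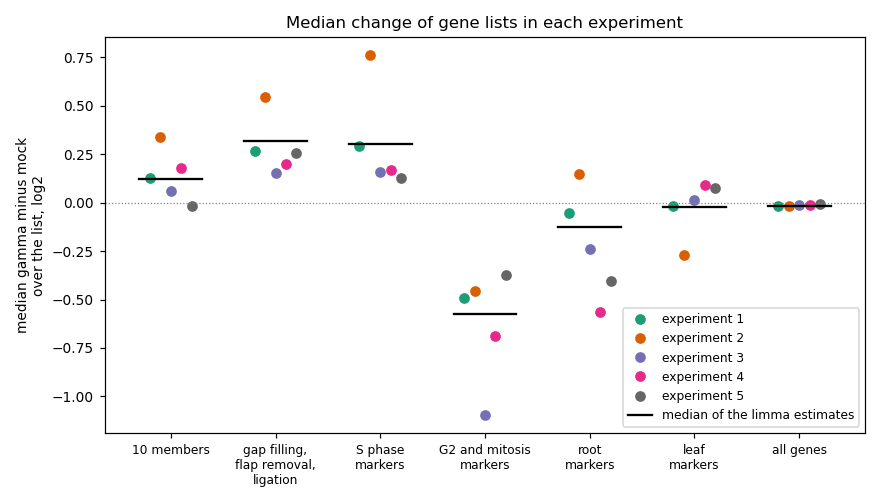
Median gamma minus mock change (log2, vertical axis) over each gene list, with 1 point per experiment and a bar for the median of the limma estimates. The 10 base excision repair genes lie near 0.12, the S-phase markers near 0.30 and the markers of G2 and mitosis near -0.57. Experiment 2 is the highest point of the first 3 lists and of the root markers, and the lowest of the leaf markers.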

How the data were processed

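Per the file headers, the scanner files hold linear spot intensity from Agilent Feature Extraction 11.0.1.1, as background-subtracted, detrended processed signals and as median spot and local background brightness. Per the submitters' processing notes the version was 9.1. The headers record no scaling between arrays. The deposited value table holds linear ratios in which higher means brighter. This was read from its columns, which correlated with the probe-centred log2 signal of the same array at r of at least 0.996 over probes. In 77.7% of its rows the array median was 1 (tolerance 1e-04). Medians of its mock columns 1 to 5 were 0.969, 0.963, 0.959, 0.974 and 0.925, and those of its gamma columns 0.967, 0.960, 0.967, 0.992 and 0.925. How it was scaled, and how its other rows were centred, is unknown, and it served only as an alternative.

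From the deposited intensity, levels were computed on the log2 scale relative to the array's 75th percentile of processed signal, without control and outlier spots. Accessions tied 34348 probes to a locus of the RefSeq gene table (assembly TAIR10.1), and 9255 probes were kept under their array identifiers. The array grid names another release, so no coordinates are given. Each gene was represented by its brightest probe and tested only where at least 5 arrays were well above background, which left 23667 of 34290 genes. The comparison used limma 3.58.1 in R 4.3.3 (lmFit, eBayes, two-sided) and a fixed term for the experiment. There were 4 residual degrees of freedom and 2.27 from the prior. The procedure was tested on simulated data, with 100 genes changed by log2 0.5 and 100 by log2 1. It called 44% of the former and 79% of the latter, and 8 unchanged genes.

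The pairing of arrays follows the run in the titles, since the labels state that runs took place on different days. Deviations of mock and gamma from their group means correlated at 0.737, 0.562, 0.775, 0.739 and 0.894 across genes in experiments 1 to 5. Each experiment's arrays shared 1 slide and 1 scan, so a slide block equals the experiment block. For the normexp alternative (offset 50) the median spot signal took the place of the planned mean signal, which was not used here. Other scalings, filters, probe rules, the deposited table, other blocks and leaving out each experiment were tried too.

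The 10 members and all lists were chosen with earlier results of these data known. Named genes were the 10 members, the pathway genes past the threshold, the 2 with the smallest p in each pathway group and marker list, the 4 of the treatment check, and the 5 genes most like UNG and ZDP. The members are called by the names given with their choice, and other genes by a symbol or synonym of the RefSeq table. Loci without a symbol there are given by their code. No sequences are given.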

Additional observations from a re-analysis of the deposited data

Results flagged for a closer look

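For the 10 genes and the 10 other pathway genes named, 60 sets of 5 values were checked (mock levels, gamma levels and differences) for an array far from the rest of its group. The gap of the extreme value to its neighbour, divided by the whole range, passed Dixon's critical value of 0.71 in 9 sets, and chance flags about 1 in 20. Of the 9, 8 came from experiment 2. The sets share the same arrays, and each difference is made of levels that were also checked, so the sets are not independent. The share of flagged sets over all genes was not counted. Over all genes the median size of the change was also largest in experiment 2, at 0.25 against 0.13 to 0.15 in the others.

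On the mock array of experiment 2, APE2 was the highest with a ratio of 0.932 and PARP1 the lowest with 0.720. The difference between gamma and mock in experiment 2 was the highest for APE1L (0.723), LIG1 (0.794), AT1G80850 (0.736) and AT5G63960 (0.779). It was the lowest for APE2 (0.835) and XRCC1 (0.725). DME had its lowest mock level in experiment 5, at -0.95 against -0.36 to -0.22 in the others, with a ratio of 0.811.

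The change of ARP differed between later and earlier experiments by log2 -0.32 ± 0.11 SE at an unadjusted p of 0.0271 in limma. It did not pass after adjustment over all genes (adjusted p = 0.405).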

How the results depend on the processing

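Of 170 values of the 10 genes under the alternatives, 153 kept their direction and their side of the threshold, 12 lost a call, 1 gained one and 4 turned sign. Only UNG and ZDP had a call to lose. Of 17 alternatives each, UNG kept its call in 12 and lost it in 5, and ZDP kept it in 10 and lost it in 7. The count of 948 genes called became 328 without the filter on dim probes, 1921 with the experiment as a random block, 0 in experiments 1 and 2 alone and 178 to 1022 with 1 experiment left out. Without the replicate block 142 genes passed, UNG (adjusted p = 0.0294) and ZDP (adjusted p = 0.0326, both limma) among them. The block ended no call of the 10 genes. The 2 calls of UNG and ZDP became 0 without the filter, where more genes are tested (limma adjusted p = 0.0508 and 0.0760). They became 0 in experiments 1 and 2 alone (0.262 and 0.385), 1 in experiments 3 to 5 alone, and 0 to 2 with 1 experiment left out. With the random block they became 3, with APE1L (limma adjusted p = 0.0454). The test of later against earlier experiments gave 0 to 2 calls with 1 experiment left out. The 4 other pathway calls became 7 with arrays centred on the median, with the deposited table, and with the filter on all arrays. They became 10 with the random block, 0 in experiments 1 and 2 alone, and 3 to 6 with 1 experiment left out. The uncalled change of ARP turned to -0.024 with normexp and to -0.12 in experiments 3 to 5 alone, and ranged from -0.060 to 0.045 with 1 experiment left out. For the other settings the cause was not tested. No separate slide block was run, since slide and experiment coincide. With 5 pairs, the 95% intervals of the 8 uncalled genes reached from as low as -0.62 to as high as 0.71 on the log2 scale.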

Other observations

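The spread of the 5 mock arrays differed widely between the 10 genes. By the SD of the mock level, OGG1 lay at the 1.12 percentile of all genes tested and ZDP at the 9.04 percentile. FPG1 (34.6), UNG (37.8), LIG1 (48.4), NTH1 (51.3), APE1L (56.3) and ARP (63.1) lay in the middle of the range. APE2 lay at the 75 percentile and XRCC1 at the 85.6 percentile. For APE2 this spread came from 1 array, and its 5 gamma arrays had an SD of 0.04.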
